A study of Mus musculus with 6 samples.

Results

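The insulin and insulin-like growth factor (IGF) receptors Insr, Igf1r and Igf2r, the receptor substrates Irs1 and Irs2 and the IGF-binding proteins Igfbp3, Igfbp4, Igfbp5, Igfbp6 and Igfbp7 were examined in mouse bEND.3 endothelial cells after knockdown of the long non-coding RNA Gm39822. These 10 genes were chosen by name for their place in the pathway, with earlier results of these data known. All 10 were listed once among the 49315 Ensembl genes of the count table and were among the 18234 genes tested. Igfbp3 fell 2.33-fold and took a smaller share of the IGFBP transcripts. Irs1 fell 1.88-fold at a low level and Igfbp4 rose 1.20-fold, while the receptors did not pass the test. Neither Irs1 nor Igfbp4 passed without Negative Control 2, and Insr passed with library size alone as the scale.

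The bEND.3 line was derived from brain endothelium of the mouse and is immortalized, so all samples come from 1 cell line with no animal age or sex to record. Cells were transfected with Lipofectamine 2000 and a custom antisense LNA GapmeR to Gm39822, or with the negative control LNA GapmeR, each at 100 nM. A GapmeR is a short oligonucleotide with locked nucleic acid ends around a stretch of DNA, and RNase H cuts the transcript to which it binds. Counts of 4 GapmeR and 2 Negative Control samples were analysed here, and the labels give neither an untreated group nor a second oligonucleotide to the same target. The labels do not say whether the samples were separate cultures, so the p-values measure the spread between these samples, which may be technical. The comparison addresses which transcripts differ when Gm39822 is depleted.

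Insulin and IGF1 act through the receptor tyrosine kinases Insr and Igf1r, which phosphorylate the IRS proteins and so recruit the PI3K and AKT kinases. Igf2r, the cation-independent mannose 6-phosphate receptor, carries IGF2 and lysosomal enzymes to the lysosome and has no kinase of its own. The IGFBPs are secreted proteins that bind IGFs and set how much of them reaches the receptors, and in the vessel wall insulin and IGF signals to the endothelium bear on nitric oxide production, growth and barrier function.

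Sequencing gave total counts of 33074972, 37117934, 30264086 and 31067184 for GapmeR 1 to 4, against 29261988 and 34266811 for Negative Control 1 and 2. Levels are given as CPM, the counts per megaread of the library size scaled by edgeR's TMM factors, and 3 counts correspond to 0.0771 to 0.11 CPM. Log2 fold changes are GapmeR over Negative Control, and p-values come from the quasi-likelihood test of edgeR, adjusted over all genes tested by the Benjamini-Hochberg method, with 0.05 as the threshold. The 15 ways to split the samples into 4 and 2 keep an exact two-sided permutation test from any p-value below 0.0667.

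Gm39822, the target, was counted first as a check of the labels. It had 2, 1, 4 and 2 counts after knockdown and 61 and 56 counts in the Negative Control samples. The groups did not overlap, and the log2 fold change was -4.82 (standard error, SE, 0.41, adjusted p = 8.8e-08 from edgeR).

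The endothelial identity of the line was checked with 12 markers, all of which were tested. Their summed level was 10540, 9296, 10659 and 10617 CPM after knockdown and 11544 and 11073 CPM in the controls, with Egfl7 the most abundant, and Cdh5, Pecam1, Kdr and Cldn5 were all among the abundant transcripts. GapmeR 2 was the lowest of the 6 samples, and 2 of the 12 markers rose and 6 fell (66.7% called, beside 45.3% of all genes tested). Those that fell were Emcn (log2 fold change -1.33), Esam (-0.63), Eng (-0.59), Cdh5 (-0.51), Kdr (-0.33) and Pecam1 (-0.30). Those that rose were Erg (1.12) and Egfl7 (0.22). Of 4 epithelial markers, Epcam and Cdh1 had fewer than 3 counts in every sample and the sum did not exceed 1.02 CPM.

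The GapmeR samples were not alike in the markers of other cell types. The macrophage markers (9 identifiers for 8 genes, 8 of them tested) summed to 223, 203, 339 and 373 CPM for GapmeR 1 to 4, against 174 and 170 CPM in the controls, with Lyz2 the most abundant, so samples 3 and 4 stood above samples 1 and 2. Csf1r, the defining growth factor receptor of macrophages, had 9.33, 7.40, 22.6 and 25.8 CPM against 7.34 and 6.83 CPM. Of this list only Cd68 passed the test, at 123, 113, 125 and 116 CPM against 87.2 and 89.5 CPM. Its samples 3 and 4 did not stand apart from samples 1 and 2. Cd14 alone of those tested had a negative log2 fold change (-0.48, not called), at 2.69, 2.18, 4.03 and 3.06 CPM against 3.72 and 4.57 CPM. In 5 of the 9 identifiers, 1 of them too scarce to be tested, every GapmeR sample was higher than both controls. Among all genes tested, 59.2% had groups that did not overlap in either direction. The 9 mural cell and fibroblast markers summed to 21.3, 19.5, 58.9 and 24.7 CPM against 14.6 and 15.4 CPM, with Pdgfra the most abundant by its mean. The high value of GapmeR 3 came from Col1a1, at 38.0 CPM there and no more than 4.58 CPM in any other sample. Myh11, a smooth muscle myosin, alone passed the test, and it was higher in all 4 GapmeR samples alike, at 5.37, 5.39, 5.93 and 5.85 CPM against 0.365 and 0.251 CPM (log2 fold change 4.19, adjusted p = 9.9e-10 from edgeR). The pericyte markers Pdgfrb and Rgs5 did not exceed 0.677 and 0.451 CPM. Dcn alone of this list had a negative log2 fold change (-1.18, adjusted p = 0.054 from edgeR). The 10 genes, the ligands and the pathway genes with the largest changes were also fitted without GapmeR samples 3 and 4, and the value is given wherever this ended or made a call or turned a sign. The part of the marker transcripts themselves in the results was not tested.

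Across all genes, 45.3% of those tested passed the threshold, 25.4% as higher and 20.0% as lower, and the groups did not overlap in CPM for 59.2%. Among the 10 genes 3 passed (30%), with 1 higher and 2 lower, and 5 had groups that did not overlap. The median log2 fold change of the 10 was -0.37, beside 0.03 for all genes tested. The share of the 10 that passed was below that of all genes, and nothing particular to the pathway can be read from it. Scaling by library size alone moved the median of all genes from 0.03 to 0.17 and the split of calls to 6106 higher and 2135 lower genes, from 4625 and 3643. Without Negative Control 2 only 1 of the 10 genes passed, and 5232 of all genes.

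**Figure D1:**
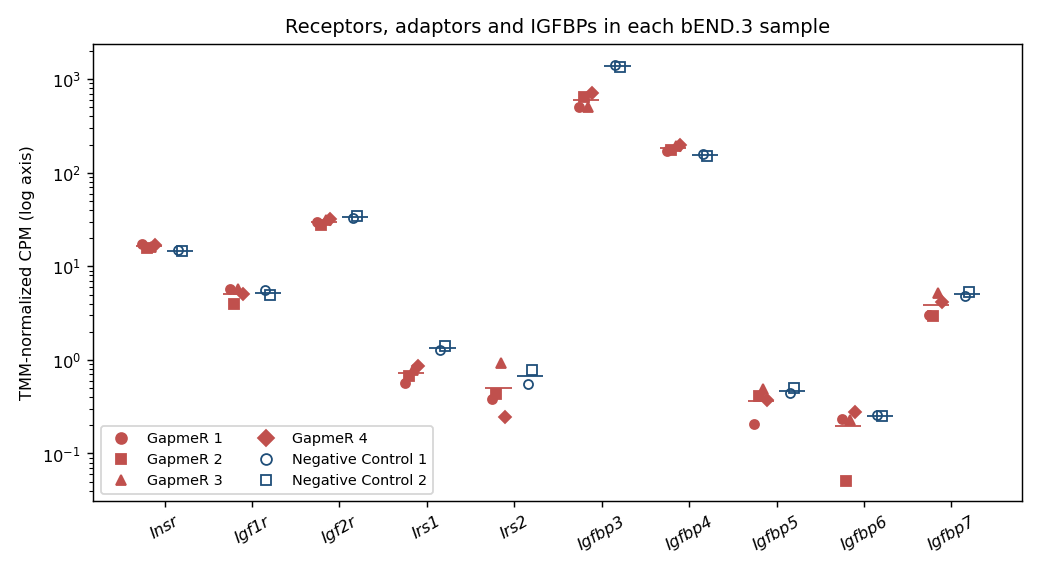
TMM-normalized CPM on a log axis for each of the 10 genes in each sample, with filled symbols for the 4 GapmeR samples, open symbols for the 2 Negative Control samples and short lines at the group means. Igfbp3, Irs1 and Igf2r lie lower in all 4 GapmeR samples than in both controls and Igfbp4 and Insr higher, and heights of different genes are not corrected for length.

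Insr, the insulin receptor (chromosome 8, 3150922 to 3279649 of mm10), had 17.2, 15.7, 16.2 and 16.8 CPM after knockdown and 14.9 and 14.6 CPM in the controls. All GapmeR samples were above both controls by a small margin. The GapmeR mean was 16.5 ± 0.639 CPM (SD, n = 4) and the control mean 14.8 ± 0.185 CPM (SD, n = 2), and the log2 fold change of 0.16 (95% interval -0.03 to 0.35) did not pass the test (adjusted p = 0.17 from edgeR). With library size alone as the scale it was 0.31 and did pass (adjusted p = 0.013 from edgeR, in a range of 0.013 to 0.35 over the alternatives).

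Igf1r, the type 1 IGF receptor (chromosome 7, 67952257 to 68233668), had 5.67, 3.93, 5.67 and 5.05 CPM after knockdown and 5.55 and 4.92 CPM in the controls. The groups overlapped, with GapmeR 2 the lowest and GapmeR 1 and 3 the highest. The log2 fold change was -0.05 (95% interval -0.40 to 0.31, adjusted p = 0.85 from edgeR), and its sign turned to 0.10 with library size scaling, to 0.07 without GapmeR 2 and to 0.06 without Negative Control 1. These samples therefore leave changes of Igf1r within that interval undetermined. Pgpep1l, on the opposite strand and sharing 1247 exon bases with Igf1r in GRCm39, had 0 counts in every sample.

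The balance between both kinase receptors was also taken within each library, where it does not depend on scaling. The log2 ratio of Insr to Igf1r counts was 1.60, 2.00, 1.52 and 1.73 after knockdown and 1.42 and 1.57 in the controls. The groups overlapped, with a difference of 0.22 between means of 1.71 ± 0.211 (SD, n = 4) and 1.496 ± 0.105 (SD, n = 2), and the exact two-sided permutation test gave p = 0.333, or 0.6 after adjustment over the 2 ratios tested.

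Igf2r (chromosome 17, 12682406 to 12769706) had 29.6, 27.3, 31.0 and 31.7 CPM after knockdown and 33.2 and 34.8 CPM in the controls. All GapmeR samples were below both controls. The GapmeR mean was 29.9 ± 1.92 CPM (SD, n = 4) and the control mean 33.97 ± 1.11 CPM (SD, n = 2), and the log2 fold change of -0.18 (95% interval -0.36 to -0.01) did not pass after adjustment (adjusted p = 0.077 from edgeR). With library size alone as the scale it was -0.04 (adjusted p = 0.74, in a range of 0.057 to 0.74 over the alternatives). The antisense transcript Airn, which overlaps Igf2r and is known for its part in Igf2r imprinting, had 10, 4, 2 and 2 counts against 3 and 0 counts and shares no exon bases with it.

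Irs1, the docking protein that couples the activated receptors to PI3K (chromosome 1, 82233105 to 82291439), fell after knockdown. It had 19, 26, 24 and 28 counts after knockdown and 35 and 45 counts in the controls, or 0.561, 0.668, 0.774 and 0.867 CPM against 1.28 and 1.41 CPM. Every GapmeR sample was below both controls. The GapmeR mean of 0.717 ± 0.132 CPM (SD, n = 4) compared with 1.34 ± 0.0936 CPM (SD, n = 2) in the controls, for a log2 fold change of -0.91 (SE 0.28, 95% interval -1.504 to -0.315, adjusted p = 0.015 from edgeR). The call rests on both controls: without Negative Control 1 it was not made (log2 fold change -0.96, adjusted p = 0.061 from edgeR), nor without Negative Control 2 (-0.81, adjusted p = 0.13), in a range of 0.0042 to 0.13 over the alternatives. Without GapmeR samples 3 and 4 the change was -1.10 on the log2 scale (adjusted p = 0.0067 from edgeR).

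Irs2, the other receptor substrate of the pair (chromosome 8, 10984681 to 11008929), had 13, 17, 29 and 8 counts after knockdown and 15 and 25 counts in the controls. The groups overlapped, and GapmeR 3 and 4 were the highest and the lowest of the 6 samples. The log2 fold change of -0.43 had a 95% interval from -1.39 to 0.52 (adjusted p = 0.46 from edgeR), which includes the change seen for Irs1. It moved to -0.87 without GapmeR 3 (adjusted p = 0.081 from edgeR), to -0.21 without GapmeR 4 (adjusted p = 0.73) and to -0.12 without Negative Control 2 (adjusted p = 0.91), in a range of 0.081 to 0.91 over the alternatives. The log2 ratio of Irs2 to Irs1 was -0.65 ± 0.8285 (SD, n = 4) in the GapmeR samples and -1.02 ± 0.255 (SD, n = 2) in the controls, which overlapped (exact two-sided permutation p = 0.6, adjusted p = 0.6).

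Igfbp3, the main carrier of IGFs in serum (chromosome 11, 7206086 to 7215498), was the largest change among the IGFBPs examined in CPM. It had 17159, 25288, 15737 and 22961 counts after knockdown and 39085 and 42766 counts in the controls, or 506, 650, 507 and 711 CPM against 1427 and 1340 CPM. All 4 GapmeR samples were far below both controls, with samples 2 and 4 above samples 1 and 3. The GapmeR mean of 594 ± 103 CPM (SD, n = 4) compared with 1383 ± 61.4 CPM (SD, n = 2) in the controls, for a log2 fold change of -1.22 (SE 0.13, 95% interval -1.51 to -0.93, adjusted p = 1.9e-05 from edgeR). It stayed past the threshold in all alternatives run, between -1.32 and -1.07, and the exact permutation test gave 0.0667, the smallest p-value it can give. Without GapmeR samples 3 and 4 it was -1.24 (adjusted p = 1.7e-09 from edgeR).

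Igfbp4, which binds IGFs and is itself cut by the protease Pappa (chromosome 11, 99040005 to 99052655), rose slightly. It had 171, 175, 194 and 200.2 CPM after knockdown and 158 and 150 CPM in the controls. All GapmeR samples were above both controls, and samples 3 and 4, the ones with more macrophage marker transcripts, were the highest. The GapmeR mean of 185 ± 14.1 CPM (SD, n = 4) compared with 154 ± 6.12 CPM (SD, n = 2) in the controls, for a log2 fold change of 0.27 (SE 0.08, 95% interval 0.10 to 0.44, adjusted p = 0.013 from edgeR). The call was lost without GapmeR samples 3 and 4 (0.19, adjusted p = 0.10 from edgeR) and without Negative Control 2 (0.25, adjusted p = 0.12), in a range of 0.00062 to 0.12 over the alternatives, and the change is below a 1.5-fold threshold.

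The RefSeq promoters of the 3 called genes are shown for sequence context, from 250 bases before to 50 bases after the start listed in the promoter table on the GRCm38.p6 build and in the direction of transcription. Capitals mark matches, on either strand, to 5 motifs: the TATA box (TATAAA), the GC box (GGGCGG), a FOXO site (GTAAACA), the core of the insulin response sequence (CAAAACA, read TGTTTTG on the other strand) and the E-box (CACGTG). Igfbp3 is at chr11:7213874-7214173 on the minus strand, Igfbp4 at chr11:99040994-99041293 on the plus strand and Irs1 at chr1:82291390-82291689 on the minus strand.
Igfbp3: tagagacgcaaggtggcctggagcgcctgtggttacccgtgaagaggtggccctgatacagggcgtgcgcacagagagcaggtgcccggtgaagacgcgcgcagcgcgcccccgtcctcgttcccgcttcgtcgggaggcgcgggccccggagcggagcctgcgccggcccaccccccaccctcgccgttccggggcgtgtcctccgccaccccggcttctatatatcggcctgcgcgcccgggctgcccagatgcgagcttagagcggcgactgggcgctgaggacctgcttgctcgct
Igfbp4: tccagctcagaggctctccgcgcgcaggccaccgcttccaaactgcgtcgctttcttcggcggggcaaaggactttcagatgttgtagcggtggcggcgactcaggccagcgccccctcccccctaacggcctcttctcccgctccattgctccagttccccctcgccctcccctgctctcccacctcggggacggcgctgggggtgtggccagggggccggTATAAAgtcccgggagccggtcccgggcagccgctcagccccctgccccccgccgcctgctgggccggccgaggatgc
Irs1: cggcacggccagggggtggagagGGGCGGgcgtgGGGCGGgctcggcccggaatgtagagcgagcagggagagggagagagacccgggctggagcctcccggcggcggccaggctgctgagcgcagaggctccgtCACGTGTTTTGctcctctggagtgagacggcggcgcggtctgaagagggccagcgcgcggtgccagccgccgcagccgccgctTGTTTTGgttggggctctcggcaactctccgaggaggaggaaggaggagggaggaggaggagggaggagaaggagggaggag

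The 3 windows were rich in G and C, at 71.7% for Igfbp3, 71.3% for Igfbp4 and 71.3% for Irs1, beside a median of 52.7% over the 32851 promoters of the table. Igfbp3 held none of the letters searched. Igfbp4 held 1 TATA box whose first base lies at position -28, counted from the transcription start, and 13.6% of all promoters held that motif. Irs1 held 2 GC boxes, at -227 and -216 (35.7% of all promoters held at least 1), and 2 insulin response cores, at -111 and -32 (6.28% of all promoters). The first of these overlapped an E-box at -115, a motif in 7.15% of all promoters, and the FOXO letters, in 3.65% of all promoters, occurred in none of the 3. For Igfbp3 and Igfbp4 the listed start lies inside the mm10 gene bounds given above rather than at their end, and counts per gene do not show which start was used. These matches describe the letters in the windows and not the binding of a factor.

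Igfbp7, a secreted protein of the vessel wall with low affinity for IGFs (chromosome 5, 77349240 to 77408045), had 3.04, 2.98, 5.16 and 4.15 CPM after knockdown and 4.82 and 5.26 CPM in the controls. The groups overlapped because of GapmeR 3. The log2 fold change of -0.40 (95% interval -0.84 to 0.03) did not pass (adjusted p = 0.12 from edgeR), but it did without GapmeR 3 (-0.56, adjusted p = 0.015) and without GapmeR samples 3 and 4 (-0.72, adjusted p = 0.0015), in a range of 0.00045 to 0.45 over the alternatives. Igfbp7 shares 747 exon bases with Polr2b on the opposite strand, which had 2836, 2962, 2445 and 2687 counts against 1817 and 2095 counts. Polr2b rose (log2 fold change 0.29, adjusted p = 0.0040 from edgeR), and its reads cannot be told apart from those of Igfbp7 there if the counting did not use strand.

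Igfbp5 and Igfbp6, a matrix-bound IGFBP and one that prefers IGF2, had few counts. Igfbp5 (chromosome 1, 72858065 to 72874865) had 7, 16, 15 and 12 counts after knockdown and 12 and 16 counts in the controls, with a log2 fold change of -0.35 (95% interval -1.24 to 0.53, adjusted p = 0.52 from edgeR). Igfbp6 (chromosome 15, 102144186 to 102149512) had 8, 2, 7 and 9 counts against 7 and 8 counts, with a log2 fold change of -0.38 (95% interval -1.65 to 0.88, adjusted p = 0.63 from edgeR). Both values moved with single samples, with Igfbp5 at -0.16 without GapmeR 1 and -0.23 without Negative Control 2, and Igfbp6 at -0.03 without GapmeR 2 and -0.60 without GapmeR 4. Both overlapped between the groups, and changes inside these intervals were not resolved.

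**Figure D2:**
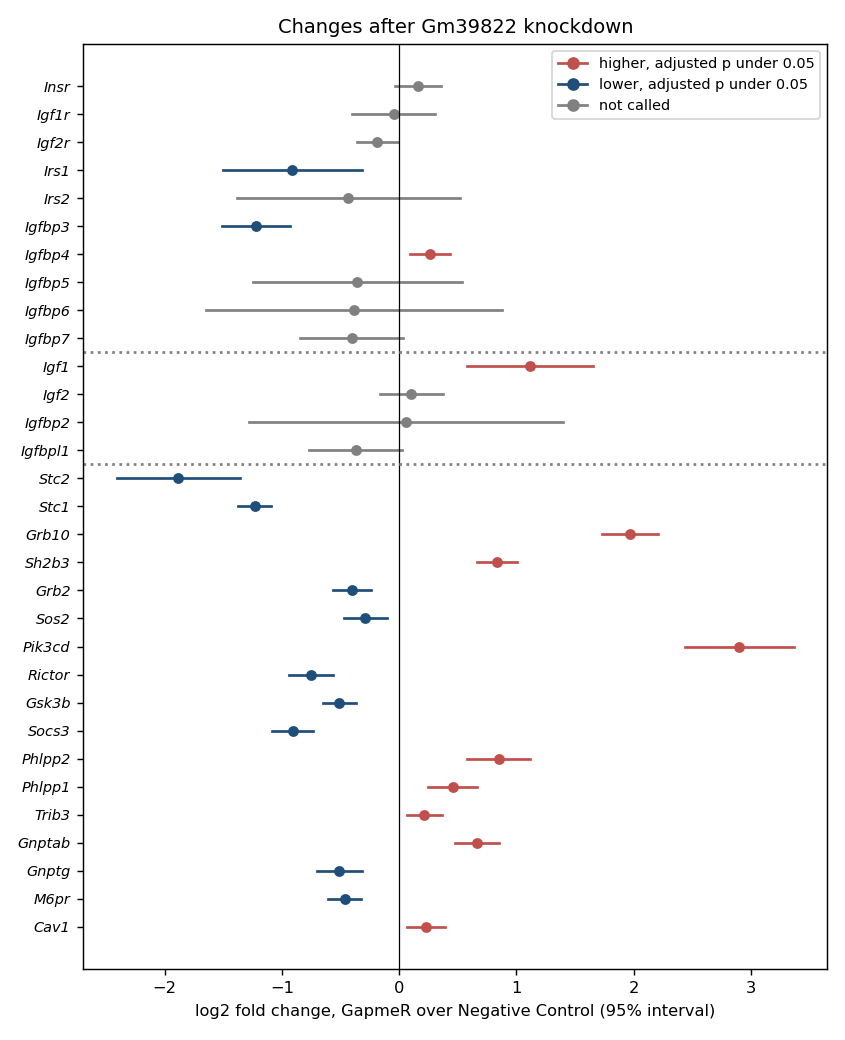
Log2 fold changes, GapmeR over Negative Control, with 95% intervals from edgeR for the 10 genes (top), further ligands and binding proteins (middle) and pathway genes with the largest changes (bottom). Igfbp3 at -1.22 is the lowest of the 10 genes, Grb10 and Pik3cd rose by 1.97 and 2.90, and grey points did not pass the test.

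Compared per kb of exon, the genes spanned several orders of magnitude. The length counts every annotated exon of a gene, which can exceed the transcript expressed, so the order depends on that choice. In the controls the mean level was 388 CPM per kb for Igfbp3, 34.8 for Igfbp4, 3.62 for Igf2r, 1.07 for Insr, 0.925 for Igfbp7, 0.265 for Igf1r, 0.183 for Igfbp6, 0.144 for Irs1, 0.0904 for Irs2 and 0.0782 for Igfbp5. In the GapmeR samples the same order held, with 166 CPM per kb for Igfbp3 and 41.9 for Igfbp4 at the top and 0.0613 for Igfbp5 at the bottom. Between neighbours in the order, the control values overlapped only for Irs2 and Igfbp5, while those of the GapmeR samples overlapped for each pair from Igf1r to Igfbp5. Insr thus lay above Igf1r, and the mannose 6-phosphate receptor above both, in both groups, and mean CPM without length gave the same order for these receptors.

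The make-up of the IGFBP transcripts differed between the groups. Igfbp3 accounted for 78.3%, 81.9%, 76.0% and 81.2% of the summed CPM per kb of the 5 IGFBPs after knockdown and for 91.6% and 91.5% in the controls. Igfbp4 accounted for 21.3%, 17.8%, 23.4% and 18.4% against 8.18% and 8.23%. All GapmeR samples lay on the same side of the controls for both, and no test was made of the shares, which follow from the levels above. The sum itself was 209 ± 30.3 CPM per kb (SD, n = 4) after knockdown and 424 ± 18.5 CPM per kb (SD, n = 2) in the controls. In bulk RNA, fewer cells that express a gene and less of its RNA per cell cannot be told apart.

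**Figure D3:**
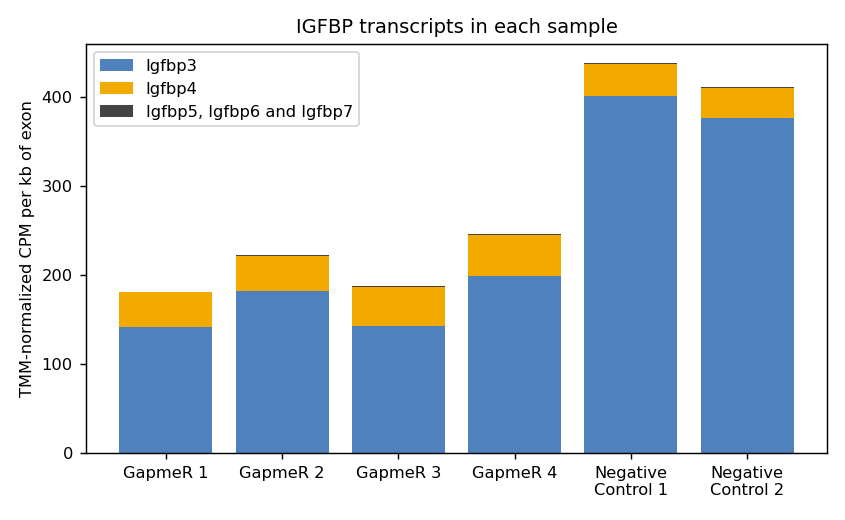
TMM-normalized CPM per kb of exon of the IGFBP transcripts in each sample, stacked from 0, with Igfbp3, Igfbp4 and the sum of Igfbp5, Igfbp6 and Igfbp7. The stacks reach 182 to 246 in the GapmeR samples and 411 to 437 in the controls, and the Igfbp3 segments are the shorter ones after knockdown.

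Of the ligands, Ins1 and Ins2, the mouse insulin genes, had 0 counts in every sample. Igf1 had 4.46, 4.24, 7.09 and 7.40 CPM after knockdown and 2.66 and 2.66 CPM in the controls. Every GapmeR sample was above both controls, and samples 3 and 4 were the highest, as they were for the macrophage markers. The log2 fold change was 1.11 (SE 0.25, adjusted p = 0.0026 from edgeR), and without GapmeR samples 3 and 4 it was 0.73 (adjusted p = 0.0022), a fall of more than 1.5 times on the log2 scale, in a range of 1.4e-08 to 0.040 over the alternatives. Igf2 had 9.18, 9.71, 7.74 and 9.91 CPM against 8.87 and 8.15 CPM, which overlapped (log2 fold change 0.10, adjusted p = 0.53 from edgeR).

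Of the remaining 5 receptor and binding protein genes, 3 were tested and 1 was called lower (33.3% called, beside 45.3% of all genes). Insrr, the insulin receptor-related receptor, had 0, 0, 3 and 3 counts after knockdown and 9 and 6 counts in the controls and was called lower (adjusted p = 0.029 from edgeR), but not without GapmeR 1 (log2 fold change -2.03, adjusted p = 0.061) or GapmeR 2 (-1.97, adjusted p = 0.053) and not with DESeq2 (adjusted p = 0.086), in a range of 0.00075 to 0.086 over the alternatives. Igfbp2, which lies tail to tail with Igfbp5 at 5.46 kb in GRCm39, had 5, 8, 28 and 15 counts against 9 and 15 counts, and its log2 fold change was 0.06 with adjusted p = 0.95 from edgeR, and the sign turned to -0.56 without GapmeR 3, to -0.14 without Negative Control 1 and to -1.14 without GapmeR samples 3 and 4. Igfbp1, the neighbour of Igfbp3 at 3.54 kb, had 1, 0, 1 and 0 counts against 0 and 0 counts. Igfbpl1, an IGFBP-like protein, had 68, 97, 68 and 74 counts against 85 and 87 counts. In CPM all GapmeR samples were below both controls, but it did not pass the test (log2 fold change -0.37, adjusted p = 0.12 from edgeR). Igfals, the acid-labile subunit of the serum IGF complex, had 1, 1, 2 and 1 counts against 0 and 0.

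**Figure D4:**
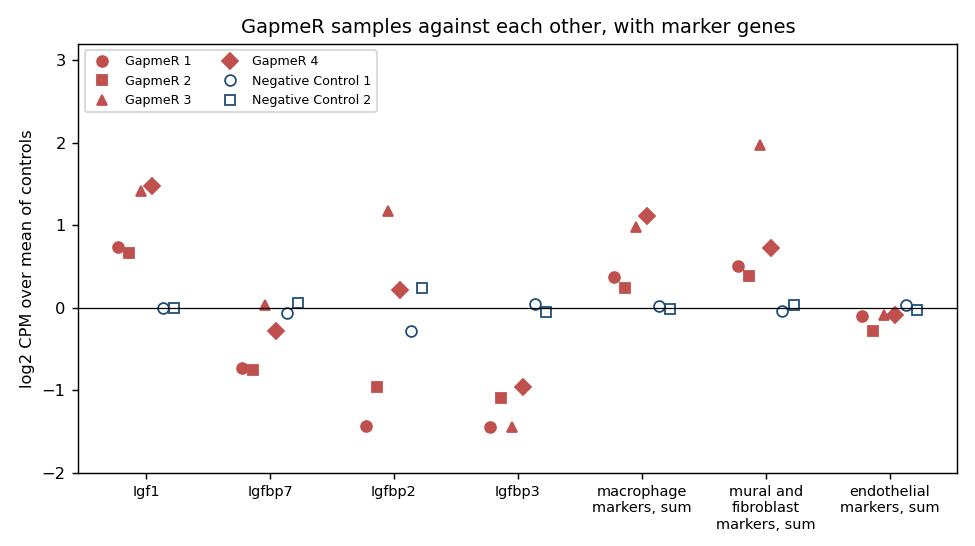
Log2 of each sample's CPM over the mean of the 2 Negative Control samples for Igf1, Igfbp7, Igfbp2 and Igfbp3 and for the summed macrophage, mural and fibroblast, and endothelial markers. GapmeR 3 and 4 are the highest for Igf1 and for the macrophage markers, GapmeR 3 is the highest for Igfbp2, and Igfbp3 is low in all 4 GapmeR samples.

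The wider pathway was followed in 72 genes, of which 64 were tested. Among these 18 rose and 14 fell, or 50% of those tested beside 45.3% of all genes, with a median log2 fold change of -0.02, and the groups did not overlap for 44 of the 64, beside 59.2% of all genes. With library size alone as the scale the split was 25 higher and 11 lower. The genes described next are mainly those with the largest changes in each list.

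Of the IGFBP proteases and their inhibitors, 4 of 5 were tested, 2 fell and none rose (50% called, beside 45.3% of all genes). Both that fell were stanniocalcins, secreted inhibitors of the pappalysins. Stc1 had 55.6, 55.1, 55.6 and 57.6 CPM after knockdown and 125 and 138 CPM in the controls (log2 fold change -1.23, SE 0.07, adjusted p = 5.1e-10 from edgeR), with the 4 GapmeR samples closer to each other than the 2 controls were. Stc2 had 1.00, 0.925, 1.45 and 0.743 CPM against 3.18 and 4.39 CPM (log2 fold change -1.88, SE 0.25, adjusted p = 1.3e-05 from edgeR). The protease Pappa, which cuts Igfbp4, was too scarce to be tested, and neither Pappa2 (adjusted p = 0.18 from edgeR) nor Htra1 (adjusted p = 0.47) passed.

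Of the other adaptors, 11 of 13 were tested, 3 rose and 2 fell (45.5% called, beside 45.3% of all genes). Grb10, an imprinted adaptor that binds the insulin and IGF1 receptors and dampens their signal, had 102, 127, 97.6 and 117 CPM after knockdown and 29.6 and 26.9 CPM in the controls. Each GapmeR sample was above 3 times either control, and samples 2 and 4 were the highest, as for Igfbp3. Its log2 fold change was 1.97 (SE 0.11, adjusted p = 3.3e-09 from edgeR). Sh2b3, also called LNK, an inhibitory adaptor of cytokine receptors, rose to 297 ± 19.4 CPM (SD, n = 4) against 167 ± 0.879 CPM in the controls (SD, n = 2, log2 fold change 0.83, adjusted p = 4.2e-07 from edgeR). It shares 558 exon bases with Atxn2 on the opposite strand, which did not pass (log2 fold change -0.01, adjusted p = 0.96).

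Grb2, which links the receptors and Shc proteins to the Ras pathway, fell (log2 fold change -0.40, adjusted p = 0.00053 from edgeR). Sos2, the exchange factor that Grb2 recruits, was called lower as well (-0.29, adjusted p = 0.013 from edgeR), but not without Negative Control 1 (-0.31, adjusted p = 0.060), without Negative Control 2 (-0.23, adjusted p = 0.17), without GapmeR samples 3 and 4 (-0.24, adjusted p = 0.051) or with library size scaling (-0.14, adjusted p = 0.22), in a range of 0.0042 to 0.22 over the alternatives. The third adaptor that rose, Irs3, falls below the level set for naming genes and was chosen after its values were seen. It had 29, 28, 13 and 20 counts after knockdown and 2 and 5 counts in the controls (log2 fold change 2.44, adjusted p = 0.0012 from edgeR), the opposite direction to Irs1.

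Of the 24 genes of the PI3K, AKT, mTOR and FOXO list, all tested, 8 rose and 6 fell. These calls were 58.3% of the list, beside 45.3% of all genes tested. Pik3cd, the delta catalytic subunit of PI3K, best known from leukocytes, had 5.08, 4.85, 5.55 and 5.20 CPM after knockdown and 0.548 and 0.815 CPM in the controls. The 4 GapmeR samples were close to each other, and the log2 fold change was 2.90 (SE 0.22, adjusted p = 2.5e-08 from edgeR), or 2.86 without samples 3 and 4. Its exons share 1244 bases with Clstn1 on the opposite strand, which fell (log2 fold change -0.58, adjusted p = 3.5e-06 from edgeR).

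The AKT kinase genes Akt1 and Akt2 did not pass (adjusted p = 0.34 and 0.10 from edgeR). Rictor, the defining subunit of the mTORC2 complex, fell (log2 fold change -0.75, adjusted p = 4.1e-06 from edgeR). Gsk3b, a kinase that AKT inhibits, fell to 77.7 ± 2.19 CPM (SD, n = 4) against 111 ± 1.56 CPM in the controls (SD, n = 2, log2 fold change -0.51, adjusted p = 1.2e-05 from edgeR). The next genes, Mtor, Rptor and the FOXO factors, were chosen after their values were seen and have no alternatives behind them. Mtor and Rptor, the kinase and the defining subunit of mTORC1, rose (0.33 and 0.31, adjusted p = 0.0036 and 0.0045 from edgeR). Of the FOXO transcription factors that AKT keeps out of the nucleus, Foxo1 rose (0.27, adjusted p = 0.0086 from edgeR), and Foxo3 and Foxo4 fell (-0.28 and -0.44, adjusted p = 0.0086 and 0.0014).

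Of the 10 brakes on the receptor signal, all tested, 3 rose and 1 fell (40% called, beside 45.3% of all genes). Socs3, a feedback inhibitor that cytokines induce, had 24.8, 23.9, 26.7 and 21.9 CPM after knockdown and 45.8 and 45.3 CPM in the controls (log2 fold change -0.91, SE 0.08, adjusted p = 2.3e-07 from edgeR). Phlpp2 and Phlpp1, phosphatases of AKT, rose by 0.85 and 0.46 on the log2 scale (adjusted p = 5.5e-05 and 0.0013 from edgeR). Trib3, a pseudokinase that binds AKT, was called higher (0.21, adjusted p = 0.021 from edgeR), but not without Negative Control 1 (0.21, adjusted p = 0.13), Negative Control 2 (0.26, adjusted p = 0.072) or GapmeR samples 3 and 4 (0.21, adjusted p = 0.058), in a range of 0.00048 to 0.13 over the alternatives. Ptpn1, the phosphatase of the insulin receptor, did not pass (adjusted p = 0.051 from edgeR).

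Of the 8 genes for receptor processing, traffic and the mannose 6-phosphate route, 2 rose and 2 fell (50% called, beside 45.3% of all genes). Gnptab and Gnptg encode subunits of the enzyme that makes the mannose 6-phosphate tag Igf2r recognizes, and they moved in opposite directions, by 0.66 (adjusted p = 1.4e-05 from edgeR) and -0.51 (adjusted p = 0.00025). M6pr, the cation-dependent receptor for the same tag, fell to 111 ± 3.11 CPM (SD, n = 4) against 154 ± 1.33 CPM in the controls (SD, n = 2, log2 fold change -0.46, adjusted p = 3.5e-05 from edgeR). Cav1, the caveolar coat protein of endothelial cells, was called higher (0.23, adjusted p = 0.020 from edgeR), but not without GapmeR 1 (0.21, adjusted p = 0.050), Negative Control 1 (0.28, adjusted p = 0.061) or Negative Control 2 (0.22, adjusted p = 0.15), in a range of 0.0005 to 0.15 over the alternatives. Furin, the protease that cuts the receptor precursors, did not pass (adjusted p = 0.063 from edgeR).

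Of the 3 IGF2 mRNA-binding proteins, 2 were tested and 1 was called higher (50% called, beside 45.3% of all genes). Igf2bp2 had 104, 103, 103 and 106 CPM after knockdown and 113 and 117 CPM in the controls and did not pass (adjusted p = 0.093 from edgeR). The gene called was Igf2bp3, named after its values were seen, at a mean of 0.248 CPM against 0.0496 CPM (log2 fold change 2.22, adjusted p = 0.020 from edgeR). It was not called without Negative Control 1 (1.94, adjusted p = 0.11), without Negative Control 2 (2.67, adjusted p = 0.075) or with DESeq2 (adjusted p = 0.083), in a range of 0.013 to 0.11 over the alternatives.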

How the data were processed

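RNA of bEND.3 cells was sequenced in paired reads after ribosomal RNA depletion. Per the labels and the study's methods, reads were trimmed and aligned to mm10 (GRCm38) with Ensembl transcripts in the bcbio-nextgen pipeline. The submitters' processing notes name Trimmomatic 0.36, STAR 2.5.2b and Subread 1.5.2. Neither the strand setting nor the Ensembl release is given in the sources used here. The deposited values are raw read counts per gene, without normalization. The table has 1 other column of per-sample counts, whose name matches no listed sample and which was not used. The study gives n = 4 for either group, and 2 Negative Control samples were analysed here.

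Samples were grouped by their titles into 4 GapmeR and 2 Negative Control samples. A gene was tested when 2 or more samples had 5 or more counts, with edgeR 4.0.16 in R 4.3.3 (TMM, robust quasi-likelihood, group only). Floors of 3 counts cover only the error of counting. Replicate pairs differed by more than sampling noise, with a chi-square per degree of freedom of 5.42 or more. Ratios used a pseudocount of 0.5 counts. Exon lengths and neighbouring genes came from GENCODE vM39 on GRCm39, mm10 gene positions and promoters from RefSeq. Promoters were matched by symbol for 9 of the 10 genes.

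The genes, lists and tests were chosen with earlier results of these data known. The text names the 10 genes, the target, all ligands and other receptors and binding proteins, and up to 4 genes of each other list with the largest change among those with adjusted p under 0.05 and at least 1 CPM; genes sharing exons or lying within 10 kb are named beside them. Some genes that this rule covers are not reported here. Alternatives were DESeq2 1.42.0's size factors and Wald test, library size scaling, limma 3.58.1's voom, 2 other filters, a 1.5-fold threshold, the replicate block and each sample left out. Leaving out GapmeR samples 3 and 4 was added after seeing the data. The test functions were tested on simulated data. Figures used Python 3.11.15 and matplotlib 3.10.9.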

Additional observations from a re-analysis of the deposited data

Results flagged for a closer look

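The summed endothelial markers had 1 GapmeR sample apart from the others. GapmeR 2, at 9296 CPM, lay below the other 3 samples at 10540 to 10659 CPM, a gap of 0.913 of the group's whole range, past the 95% critical value of Dixon's test for 4 samples. The summed mural cell and fibroblast markers had GapmeR 3 apart, at 58.9 CPM above 19.5 to 24.7 CPM in the others, a gap of 0.868 of the range. In all, 39 quantities were checked in this way and 2 passed, and chance flags about 1 in 20 groups.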

How the results depend on the processing

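Of 147 values of the 10 genes under the alternatives, 133 kept their direction and side of the threshold, 4 changed sign, 6 lost the call and 4 gained it. Of 381 values of the other named genes, 349 kept both, 5 changed sign and 27 lost the call. The causes of these changes were not tested, beyond the smaller number of samples or genes that a setting itself brings. Leaving out 1 sample at a time gave 5232 to 8719 genes called of all genes, 1930 to 3949 of them lower, and 1 to 4 of the 10 genes, 0 to 1 higher and 1 to 3 lower. It gave log2 fold changes of -1.01 to -0.81 for Irs1, 0.23 to 0.33 for Igfbp4, -0.56 to -0.30 for Igfbp7 -0.11 to 0.066 for Igf1r and -0.56 to 0.37 for Igfbp2. With 1 control left, that sample was assumed to vary like the GapmeR samples. A 1.5-fold threshold left 4628 genes called, 1390 of them lower, ended the call of Igfbp4 (0.27) and left 14 genes of the pathway lists, 8 higher and 6 lower. With library size alone as the scale, 2135 genes were called lower and 2 of the 10 genes higher, Insr at 0.31 was called and Igf1r was at 0.10. With at least 10 counts in every sample Igf1r was at 0.0015. Without GapmeR samples 3 and 4, none of the 10 genes was called higher (0), with Igfbp4 at 0.19, and Igfbp7 was called at -0.72.

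The replicate block used the 4 samples whose numbers occur in both groups and called 7798 genes, 7131 of them also called without it. The block also ended the calls of Sos2, Trib3 and Cav1. Under the block none of the 10 genes was higher (0), with Igfbp4 at 0.19 (adjusted p = 0.11 from edgeR), and Igfbp7 was called at -0.73 (adjusted p = 0.00045). Deviations of same-numbered samples correlated at -0.11 and 0.17 over 8870 genes, which does not establish a pairing. The sign of Igfbp2 turned to -0.27 with limma-voom, -1.14 under the replicate block, -0.56 without GapmeR 3, -0.14 without Negative Control 1 and -1.14 without GapmeR samples 3 and 4. Shares of the IGFBP transcripts taken without length were, in the GapmeR and control samples, 75.5% and 89.7% for Igfbp3, 23.9% and 9.97% for Igfbp4, 0.0472% and 0.0305% for Igfbp5, 0.0258% and 0.0164% for Igfbp6, and 0.497% and 0.327% for Igfbp7. Irs2, Igfbp5 and Igfbp6 had at most 29 counts in a sample, and changes inside their intervals were not resolved.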

Other observations

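Some genes next to the IGFBPs differed where the IGFBP itself did not pass the test. Soat2, which esterifies cholesterol and begins 0.84 kb downstream of Igfbp6 on the same strand in GRCm39, had 267, 294, 231 and 235 counts in the GapmeR samples and 67 and 69 counts in the controls (log2 fold change 1.71, SE 0.15, adjusted p = 1.4e-07 from edgeR). All GapmeR samples were above both controls, while Igfbp6 had at most 9 counts in a sample. Spryd3, 7.7 kb upstream of Igfbp6 on the opposite strand, fell (log2 fold change -0.22, adjusted p = 0.021 from edgeR). No explanation of these values was tested.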
